A study of Mus musculus with 2 samples.

Results

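The genes of lysosomal digestion and of the proton pump that acidifies the lysosome were examined on 2 arrays of mouse marrow progenitors. A gene was included where a probe set was annotated to 1 symbol alone and that symbol began with Atp6v0 or Atp6v1 or stood in a list of 35 lysosomal genes. The rule found 54 of the 18193 genes measured, with 111 probe sets. They comprised 20 pump genes and 34 of the 35 listed genes, Cd63 being not analysed here. The rule itself uses symbols and no measured value, although it was set with earlier results of these data known.

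Both preparations came from wild-type C57BL6J mouse bone marrow and were LSK Flt3- cells, that is, cells without lineage markers or Flt3 and with Sca-1 and high c-Kit, a fraction rich in blood stem cells. One preparation was transduced with Satb1, which encodes a nuclear protein that organises chromatin, and the other was the GFP control. Each was measured on 1 Affymetrix array, so there was n = 1 per group, no replicate spread and no p-value for any difference below. The sources used here do not give the vector, the time after transduction or the number of animals behind each preparation. Every value is a MAS5 intensity, a linear brightness per probe set.

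Lysosomes are acidic organelles in which hydrolases break down proteins, glycans and lipids delivered by endocytosis, phagocytosis and autophagy. The V-ATPase pumps protons into them: its V1 sector hydrolyses ATP in the cytosol and drives proton passage through the membrane-bound V0 sector. TFEB and TFE3 are transcription factors that leave the lysosome surface when nutrients are scarce and act on lysosomal genes through an E-box, a short DNA motif with the core CACGTG. In blood, lysosomes are most abundant in macrophages and granule-bearing myeloid cells, and in stem cells lysosomal activity has been linked to quiescence.

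The promoters were examined for this E-box, since it is the sequence feature for which these genes are known as a group. RefSeq promoter windows of the build GRCm38.p6, from 250 bases before to 50 bases after a gene start, were matched to 42 of the 54 genes. The unmatched genes were Asah1, Atp6v0a2, Atp6v0d2, Atp6v1b2, Atp6v1c1, Atp6v1g1, Atp6v1h, Ctsb, Ctse, Ctsh, Galns and Npc1. The core CACGTG, searched on both strands, was found in 16 of the 42 genes (38.1%), against 2187 of all 27025 genes with a window (8.09%). The longer TCACGTG, which contains the core, was found in 14 of the 42 (33.3%) against 4.29% of all genes, and the palindrome TCACGTGA, which contains both, in 6 of the 42 (14.3%) against 1.12%. With G before and C after these 8 letters, the full consensus was in 0 of the 42 genes and in 0.370% of all genes, which says only that these exact letters are not in these windows. Among genes above the array floor defined below, the core was in 15 of 36 lysosomal genes (41.7%) and in 1085 of 9024 genes in all (12.0%). A match is a run of letters and does not show that a factor binds there. The genes with the core were Arsa, Atp6v0b, Atp6v0d1, Atp6v0e, Atp6v1a, Ctsa, Ctsd, Ctsf, Ctsl, Gaa, Glb1, Lamp1, Lgmn, Mcoln1, Naglu and Sgsh.

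**Figure D1:**
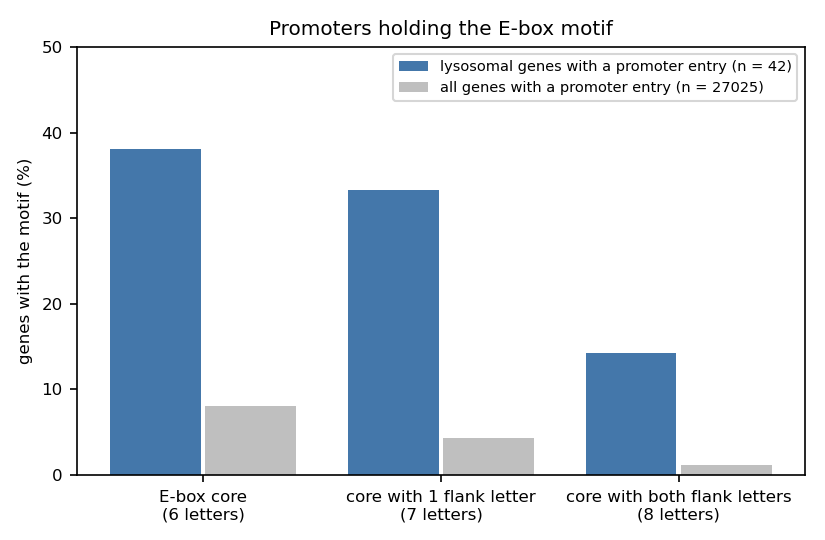
The bars give the percentage of genes with a promoter window that hold the E-box core CACGTG (left pair), TCACGTG (middle pair) or TCACGTGA (right pair), in blue for the 42 lysosomal genes and in grey for all 27025 genes. The blue bars stand at 38.1%, 33.3% and 14.3%, and the grey bars at 8.09%, 4.29% and 1.12%.

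Sites of 5 of the 6 genes with the 8-letter palindrome are printed first, because they show the shared letters in pump subunits and cathepsins alike. Sgsh and Ctsf follow, the only genes of the group that were lower by 1.5-fold or more on the Satb1-labelled array. Each run is read 5′ to 3′ on the gene's strand, with the core in capitals and up to 8 bases on either side.
Atp6v0d1 (chr8:105566054-105566075, minus strand): actgcggtCACGTGagacgcgg
Atp6v0e (chr17:26676391-26676412, plus strand): gcgccgatCACGTGagcctctg
Atp6v1a (chr16:44139377-44139398, minus strand): ttttaaatCACGTGataggctt
Ctsa, site 1 (chr2:164833753-164833774, plus strand): caaactgtCACGTGatgcagat
Ctsa, site 2 (chr2:164833770-164833791, plus strand): cagatgctCACGTGaccagagc
Ctsd (chr7:142387912-142387933, minus strand): ccgcgtctCACGTGacccgttg
Sgsh (chr11:119355526-119355547, minus strand): ctgccgtgCACGTGaccgtggg
Ctsf (chr19:4855078-4855099, plus strand): ccgtggtcCACGTGcctcgcgt
The core is bounded by t and a in the first 6 runs, by g and a in Sgsh, and by c on both sides in Ctsf.

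Lamp1 held the core 4 times, starting from 61 to 15 bases before the gene start, which is why its sites are set together. In 16 genes there were 23 cores in all, 17 of them starting within 100 bases before the gene start, and 5 genes had more than 1.
Lamp1, site 1 (chr8:13159092-13159113, plus strand): caagatatCACGTGgtccagcg
Lamp1, site 2 (chr8:13159108-13159129, plus strand): ccagcgccCACGTGatgccgac
Lamp1, site 3 (chr8:13159125-13159146, plus strand): ccgactggCACGTGaccacatc
Lamp1, site 4 (chr8:13159138-13159159, plus strand): gaccacatCACGTGcggaacgg
The whole window of Mcoln1 (chr8:3500269-3500568, plus strand), the sixth gene with the palindrome, shows how its pair of cores lies close to the gene start.
Mcoln1: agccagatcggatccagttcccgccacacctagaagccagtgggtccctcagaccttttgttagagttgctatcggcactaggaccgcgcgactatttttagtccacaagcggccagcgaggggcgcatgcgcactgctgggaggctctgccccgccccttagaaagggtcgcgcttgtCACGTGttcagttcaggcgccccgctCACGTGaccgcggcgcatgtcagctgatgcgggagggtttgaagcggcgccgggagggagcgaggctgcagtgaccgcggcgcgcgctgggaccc
The first base of the cores lies 71 and 45 bases before the Mcoln1 gene start.

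The state of the arrays bears on every value below. A floor of 61.7, the median intensity over both arrays together, replaced all lower intensities before differences were computed. The brightest Satb1 probe set read 1116 on the GFP-labelled array and 909 on the Satb1-labelled array, and none of the 5 Satb1 probe sets was higher on the latter, so all directions rest on the labels. Of the LSK markers, Kit read 3293 and 3388 and Cd34 8563 and 8197, while Flt3, whose protein defines the cells by its absence, read 1390 and 1334. Of the 7 LSK genes measured, 5 were within 1.5-fold, Slamf1, the gene of the stem cell marker CD150, was higher on the Satb1-labelled array at 95.7 and 233, and Hlf, a stem cell transcription factor gene, was lower at 673 and 382. Markers of other cell types differed between the arrays. All 7 genes measured from the neutrophil list were higher on the Satb1-labelled array, with summed intensities of 6403 and 18873. Ctsg, the gene of a neutrophil granule protease that is not in that list, was lower, at 12716 and 8777. All 5 mast cell and basophil genes above the floor were lower, with sums of 13827 and 7511 over the 6 measured. All 5 megakaryocyte genes were higher, 2 of them (Ppbp and Gp1bb) by 1.5-fold or more, with sums of 25662 and 29403. Of the 4 dendritic cell genes, 2 were above the floor and within 1.5-fold, and of the 5 lineage antigen genes measured, 2 were above it, with Cd8a higher at 88.9 and 148. Of 9 macrophage genes, 3 (Csf1r, Cd14 and Adgre1) were above the floor, with sums of 4662 and 4078 over all 9, and the complement genes C1qa (1.8 and 1.6) and C1qc (2.3 and 1.9) were near the bottom of the scale. All 5 osteoclast genes were below the floor. In such bulk RNA, fewer cells of a type and less RNA per cell cannot be told apart, and the part of these cell types in the lysosomal values was not tested.

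Most lysosomal genes were well above the floor and nearly equal on both arrays. Of the 54 genes, 47 passed the floor, and their intensities had a lowest value of 68.5, a median of 1381 and a highest of 10100 on the GFP-labelled array, and 62.5, 1685 and 9897 on the Satb1-labelled array. Summed over the 54 genes the intensity was 113091 on the former and 113043 on the latter. The median log2 difference, Satb1 minus GFP, was -0.05 over the 47 genes and -0.02 over all 11048 genes above the floor. The median of its absolute size was 0.13 for the lysosomal genes and 0.15 for all genes. By any amount, 18 were higher and 29 lower (61.7%), where 54.8% of all genes were lower and 45.2% higher.

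At 1.5-fold, 1 of the 47 genes was higher (Ctsh) and 2 were lower (Ctsf and Sgsh). Of all genes above the floor, 1.75% were 1.5-fold or more higher and 3.91% lower, so the counts of 1 and 2 in 47 lie near this background. At 2-fold, Ctsh alone was higher, against 0.272% of all genes, and 0 lysosomal genes were lower, against 0.86%. The other 44 genes were within 1.5-fold. All 3 exceptions had intensities of at most 514 on both arrays. Among the 35 lysosomal genes with a mean intensity of at least 500, 0 were 1.5-fold apart in either direction, where 0.605% of all such genes were higher and 1.07% lower. This cut was chosen after the values were seen and leaves out all 3 exceptions, so the count of 0 follows from the cut. It also lies near the background of such genes.

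**Figure D2:**
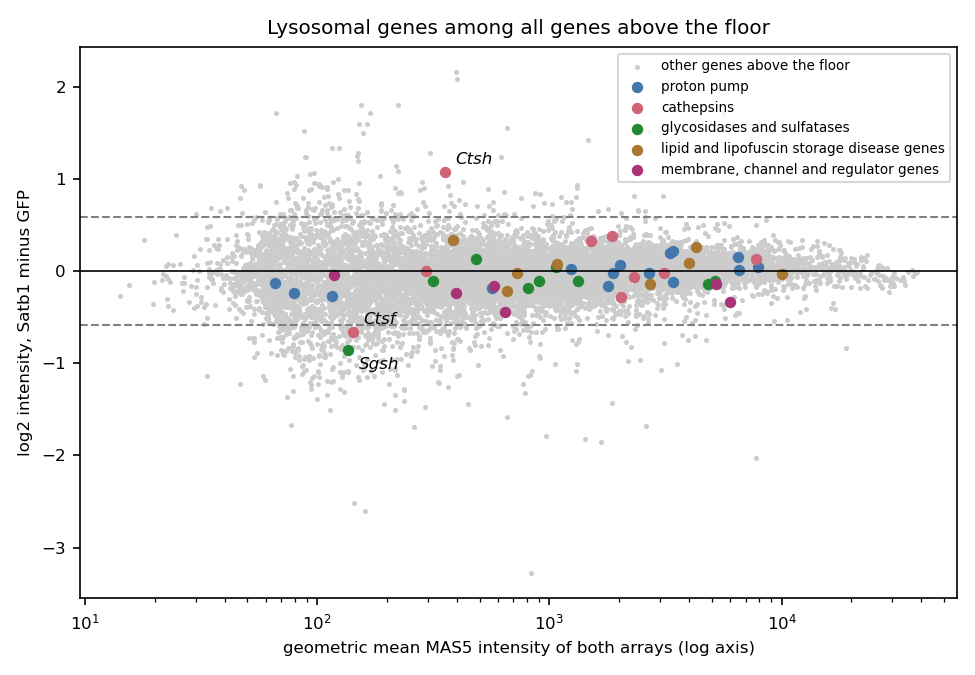
Each point is a gene above the floor, with the geometric mean of its MAS5 intensities on a log axis and its log2 difference, Satb1 minus GFP, upright, and the dashed lines mark 1.5-fold. The coloured lysosomal genes lie within the grey cloud of other genes, with Ctsh above the upper line and Ctsf and Sgsh below the lower one.

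**Figure D3:**
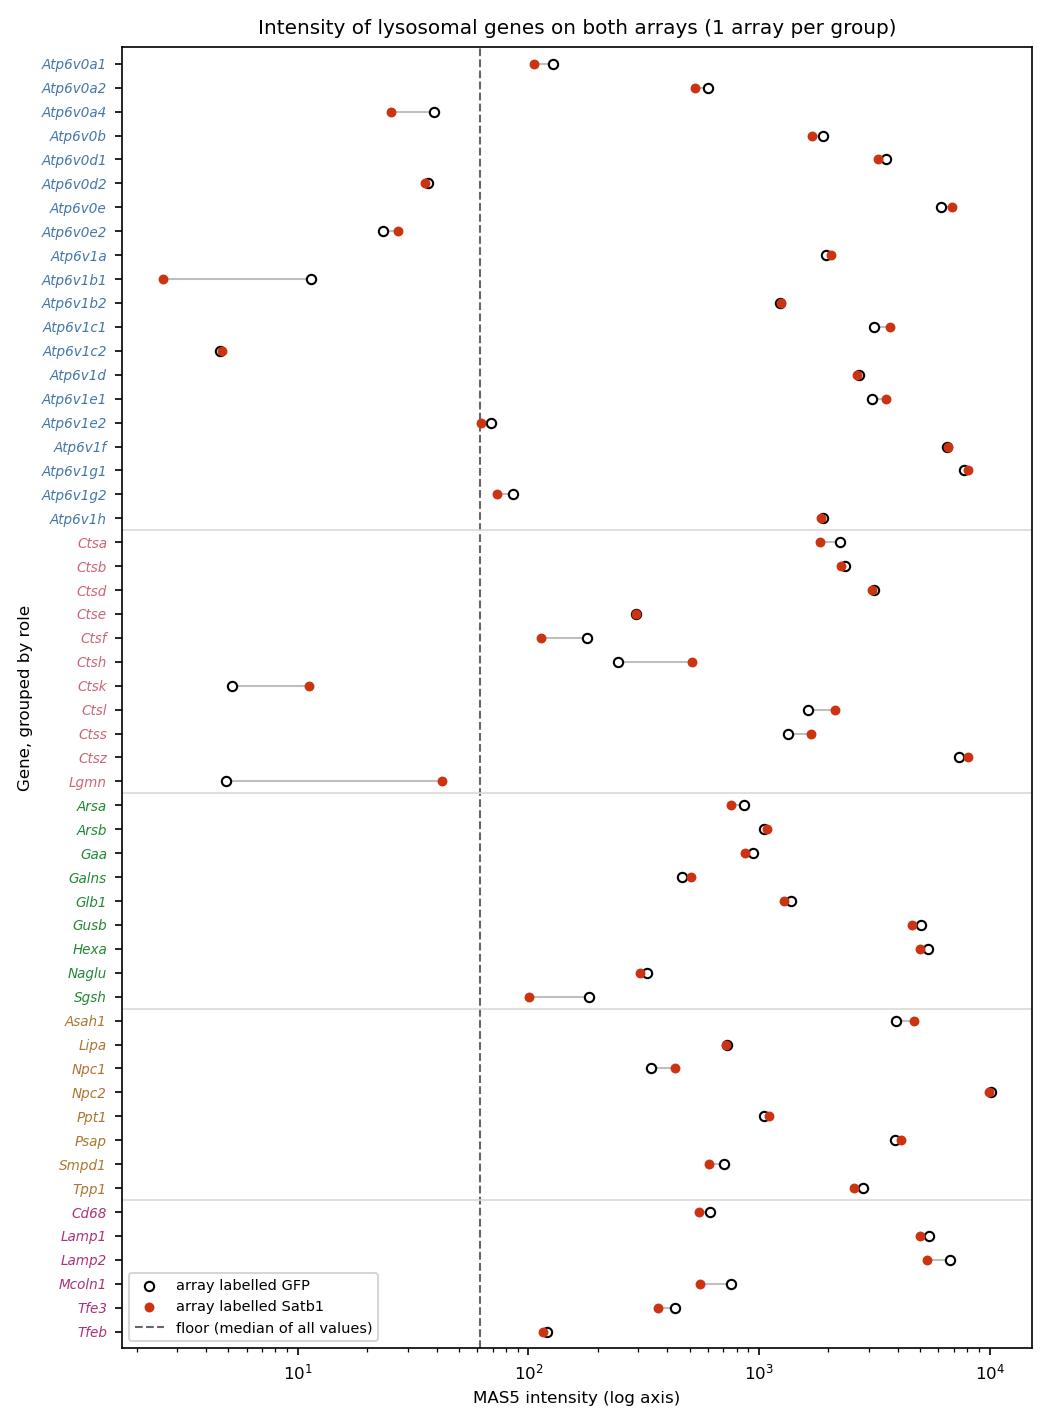
Each line is 1 of the 54 lysosomal genes, with its MAS5 intensity on the GFP-labelled array (open circle) and on the Satb1-labelled array (red) on a log axis, and label colours mark the 5 role groups. The circles of most genes nearly coincide, 7 genes lie below the dashed floor of 61.7 on both arrays, and the wide gaps below the floor are those of Atp6v1b1, Ctsk and Lgmn.

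Probe sets of the same gene gave the only technical spread that the design allows. Among 26 lysosomal genes with at least 2 probe sets above the floor, the log2 difference had a within-gene SD of 0.29, against 0.27 over 4840 genes of the whole array. All probe sets pointed the same way in 16 of the 26 genes and both ways in 10. Error shared by a whole preparation is not in this SD. The differences of 36 of the 47 genes (76.6%) were 0.25 or less in size, which is smaller than this SD. Among all genes above the floor the share was 71.7%, so small differences were common on the whole array.

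The V-ATPase was described by sector. The median log2 difference of its 15 genes above the floor was -0.02, with 7 higher and 8 lower by some amount and 0 at 1.5-fold. In the V1 sector, 10 of 12 genes were above the floor, 6 higher and 4 lower, and the median was 0.02. In the V0 sector, 5 of 8 were above the floor, 1 higher and 4 lower, and the median was -0.17. Among all genes above the floor, 54.8% were lower and the median was -0.02. Whether the sectors differ was not tested, and the 5 V0 values ranged from -0.27 to 0.16.

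Among the V1 genes, Atp6v1g1, for a subunit of the peripheral stalk, read 7770 on the GFP-labelled array and 8039 on the Satb1-labelled array, a log2 difference of 0.05. Atp6v1f, for a subunit of the rotor stalk, read 6527 and 6596, a difference of 0.02. Atp6v1c1, whose product takes part in joining V1 to V0, read 3164 and 3690, a difference of 0.22, and its other probe sets gave -0.01 and 0.25. These V1 genes were bright and close to equal on both arrays. The catalytic subunit gene Atp6v1a read 1959 and 2051, while its second probe set read 690 and 1010, a difference of 0.55. It was chosen for its role after the values were seen, as was Atp6v1e1, for another stalk subunit, which showed the widest disagreement of the group. The probe set that represents Atp6v1e1 read 3093 and 3545, another 273 and 511, and the remaining one above the floor 135 and 74.4, so that its log2 differences spanned from -0.86 to 0.91.

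Among the V0 genes, Atp6v0e, for a small membrane subunit, read 6164 and 6874, a difference of 0.16. Atp6v0a1, for an isoform of the large subunit through which protons pass, read 127 and 106, a difference of -0.27, and its second probe set above the floor gave -0.36. Atp6v1g2, a V1 gene known as the neuronal form of the G subunit, was also near the floor, at 86.0 and 72.8, a difference of -0.24. The other pump genes above the floor differed by -0.18 to 0.02 in the probe sets that represent them. Some of their other probe sets above the floor disagreed. The second one of Atp6v1h read 136 and 88.5, a difference of -0.62, and those of Atp6v0a2 gave -0.01 and 0.31.

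Among the genes that the rule took in, the isoforms known from specialised tissues were dim or below the floor. The a3 isoform of the large V0 subunit, Tcirg1, lies outside the rule. It was well above the floor, at 1295 on the GFP-labelled array and 960 on the Satb1-labelled array. Atp6v0a4 and Atp6v1b1, the kidney intercalated cell forms, Atp6v0d2, the osteoclast form, and Atp6v0e2 and Atp6v1c2 read at most 38.9 on either array. The forms Atp6v0d1, Atp6v1b2 and Atp6v1c1, which most tissues use in their place, read from 1232 to 3690 over both arrays. Intensity also depends on how well a probe set binds, so these values place each gene above or below the floor and do not rank the isoforms.

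**Figure D4:**
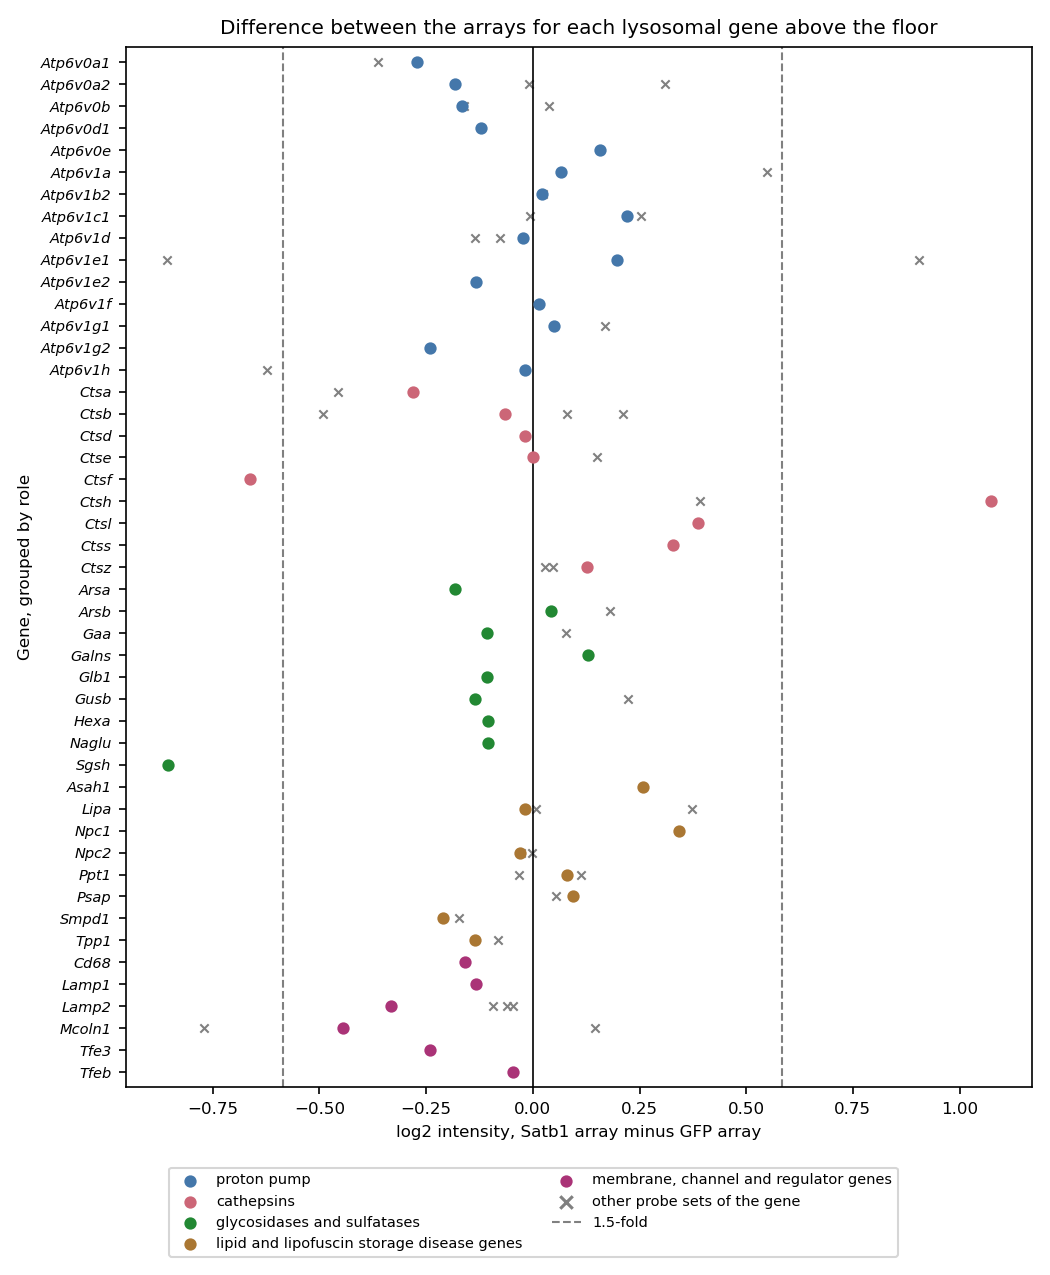
Each row is 1 of the 47 lysosomal genes above the floor, the filled point is the log2 difference, Satb1 array minus GFP array, of the probe set that represents it, crosses are those of its other probe sets whose intensities both passed the floor, and dashed lines mark 1.5-fold. Ctsh (1.07), Ctsf (-0.66) and Sgsh (-0.85) are the filled points outside the lines, and the crosses of Atp6v1e1 lie outside them on both sides.

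The cathepsins are the lysosomal proteases, and they held the widest range of differences. Of 11 genes, with the asparaginyl endopeptidase gene Lgmn counted among them, 9 were above the floor. By some amount 5 were higher and 4 lower, the median log2 difference was 0.00, and 7 were within 1.5-fold. Ctsh, for the aminopeptidase cathepsin H, read 244 on the GFP-labelled array and 514 on the Satb1-labelled array, a 2.10-fold difference (log2 1.07). This placed 25 genes of the array above Ctsh by floored difference. Its second probe set, whose name marks possible matches to other genes, read 213 and 279, a difference of 0.39. Both probe sets were higher on the Satb1-labelled array, and the second was under 1.5-fold. With the mean over both probe sets the difference was 0.73, no longer 2-fold.

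Ctsf, for the cysteine protease cathepsin F, went the other way at 179 and 113, a 1.58-fold difference (log2 -0.66). Its other probe set did not pass the floor, and after quantile normalization the difference was -0.51, which is under 1.5-fold. With the mean over both probe sets, Ctsf fell below the floor on both arrays and the difference was 0. Ctsl, for cathepsin L, read 1628 and 2129, a difference of 0.39. A second Ctsl probe set, at 38.2 and 84.1, was above the floor on the Satb1-labelled array alone.

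Over the 9 cathepsin genes above the floor, the median absolute log2 difference was 0.28, against 0.15 for all genes above the floor. The 3 brightest cathepsin genes differed by less in the probe sets that represent them. Ctsz, for the carboxypeptidase cathepsin Z, read 7394 and 8072, a difference of 0.13, with its other probe sets at 0.03 and 0.05. Ctsd, for the main lysosomal aspartic protease, read 3138 and 3100, a difference of -0.02. Ctsb, for cathepsin B, read 2367 and 2262, a difference of -0.07, and its 4 probe sets above the floor ran from -0.49 to 0.21. Ctss, the protease that trims the invariant chain of MHC class II, and Ctsa, the protective protein of β-galactosidase and neuraminidase, were chosen for their roles after the values were seen. Ctss read 1342 and 1685, a difference of 0.33, and Ctsa 2240 and 1843, a difference of -0.28, with its second probe set at -0.46. Ctse, for a non-lysosomal aspartic protease of the endosome, chosen likewise, read 294 on both arrays.

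Ctsk and Lgmn were below the floor on both arrays. Ctsk, the collagen-degrading protease of osteoclasts, read 5.2 and 11.2, and Lgmn, bright in macrophages, read 4.9 and 42.1. These values are given because the genes mark other cells, and no difference is drawn from them.

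Glycosidases and sulfatases take sugars and sulfate groups off glycans and glycolipids. All 9 genes were above the floor, 7 lower and 2 higher by some amount, with a median log2 difference of -0.11, and 8 were within 1.5-fold. Among all genes above the floor, 54.8% were lower and the median was -0.02. Of these 9 differences, 5 lay between -0.14 and -0.10, which is below the probe set spread of 0.29. Hexa, the β-hexosaminidase subunit lost in Tay-Sachs disease, read 5383 and 5004, a difference of -0.11. Gusb, for β-glucuronidase, read 5039 and 4588, a difference of -0.14, but a second probe set read 711 and 831, a difference of 0.22. Glb1, for lysosomal β-galactosidase, read 1381 and 1281, a difference of -0.11.

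Sgsh, the sulfamidase of heparan sulfate breakdown, was the exception at 183 and 101, a 1.81-fold difference (log2 -0.85). The other did not pass the floor and read 55.7 and 54.1. Only 1 of the Sgsh probe sets therefore carried the difference, and with the mean over both it was -0.45, under 1.5-fold. Arsa, for the sulfatase that acts on sulfatide, read 858 and 757, a difference of -0.18. The remaining genes, Arsb, Gaa, Galns and Naglu, differed by -0.11 to 0.13.

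The lipid and lipofuscin storage disease genes comprise lipid hydrolases, their activators, cholesterol carriers and enzymes whose loss leads to lipofuscin-like storage. All 8 were above the floor and within 1.5-fold, 4 higher and 4 lower by some amount, with a median log2 difference of 0.03. Npc2, a soluble carrier that takes cholesterol from lysosomal lipid, read 10100 and 9897, a difference of -0.03. Its other bright probe set read 9651 and 9633. The membrane partner of this carrier, Npc1, read 339.9 and 431.3 on its single probe set, a difference of 0.34.

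Asah1, for acid ceramidase, read 3914 and 4684, a difference of 0.26. Smpd1, for acid sphingomyelinase, which makes the ceramide that acid ceramidase cleaves, read 706 and 610, a difference of -0.21, with its second probe set at -0.17. Psap, the precursor of the saposin activators of sphingolipid breakdown, read 3875 and 4134, a difference of 0.09. The 2 enzymes of ceramide turnover thus pointed opposite ways by amounts under the probe set spread. Lipa, Ppt1 and Tpp1 differed by -0.14 to 0.08.

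Membrane proteins, the calcium channel and the regulators were all lower by some amount, 6 of 6, with a median log2 difference of -0.20, and 0 were 1.5-fold apart. After quantile normalization the median stayed below 0, at -0.17, but Tfeb was then higher on the Satb1-labelled array, at 0.10. As 54.8% of all genes above the floor were lower, and each value is from 1 pair of arrays, the count of 6 is a description. Mcoln1, the lysosomal calcium channel TRPML1 whose promoter is printed above, read 753 and 553, a difference of -0.45. Its other probe sets disagreed: one read 299 and 331, a difference of 0.15, and one 138 and 80.9, a difference of -0.77.

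Lamp2, a heavily glycosylated protein of the lysosomal membrane with a part in autophagy, read 6754 and 5365, a difference of -0.33. Its other 3 probe sets were lower as well, by -0.05 to -0.09, so the direction was shared and the size was not. Lamp1, its paralogue with 4 E-box cores, read 5466 and 4981 on a single probe set, a difference of -0.13. Tfe3 read 430 and 364, a difference of -0.24. Tfeb, given for its role as regulator after its value was seen, was dim and read 120 and 116, a difference of -0.05. Cd68, a membrane glycoprotein bright in macrophages and chosen likewise, read 611 and 548, a difference of -0.16.

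The genes with the E-box core were then set beside those without it. Of the 15 genes with a core and above the floor, 12 were lower and 3 higher by some amount, with a median log2 difference of -0.12. Of the 21 genes above the floor whose windows lacked it, 14 were lower and 7 higher, with a median of -0.05. Of the 11 above the floor with no promoter window, Ctsh among them, 8 were higher and 3 lower, with a median of 0.05. Among all genes above the floor, 54.8% were lower and 45.2% higher. The directions of all genes with the core were not computed, so these counts link no direction to the core. The ranges overlapped, from -0.85 to 0.39 with the core from -0.33 to 0.33 without it and from -0.18 to 1.07 with no window, and the difference between these sets was not tested.

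Other lysosomal genes, outside the group, were counted in the same way. A list of 48 hydrolases, receptors, pump accessory genes and nutrient-sensing genes held 43 measured genes, of which 42 were above the floor, 15 higher and 27 lower by some amount, with a median log2 difference of -0.09. The median absolute difference was 0.16, and 26 of the 42 (61.9%) were 0.25 or less in size, against 76.6% of the group and 71.7% of all genes above the floor. At 1.5-fold, 1 was higher and 1 lower, beside 1.75% and 3.91% of all genes. Igf2r, the large mannose 6-phosphate receptor that delivers hydrolases, was 1.61-fold higher at 64.9 and 105. Ctsw, a cathepsin of cytotoxic lymphocytes, was at least 1.82-fold lower at 112 and 45.2. Ctsg, the neutrophil granule protease, read 12716 and 8777 (log2 -0.53), and Acp2, the lysosomal acid phosphatase gene, 317 and 222 (log2 -0.51). The other 40 genes above the floor, Ctsg and Acp2 among them, were within 1.5-fold. Tcirg1, the a3 isoform of the large V0 subunit under its own symbol, chosen after its value was seen, read 1295 and 960, a difference of -0.43.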

How the data were processed

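The authors deposited MAS5 intensities, on a linear scale, for 45037 probe sets on 2 arrays, per the submitters' processing notes. MAS5 summarises probe pairs as 1 brightness per probe set. The sources used here give neither its version nor its scaling target. Trimmed of 2% at either end, the mean intensity was 497 on each array. Detection calls were not used here. Arrays have no read depth, and their number (1 per group) limits the precision.

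Probe sets with 1 gene symbol (34945) were kept, those with several (932) or none (9160) left out, and symbols were updated by Entrez ID to GRCm38.p6 (34741 matched). A gene was represented by its probe set of highest mean log2 intensity. Values were floored at 61.7 and the log2 difference was taken as Satb1 minus GFP. Where 1 intensity was floored, the difference is a bound. Full values are given for genes at 1.5-fold or more and, per role group, for the 3 largest differences and the 3 brightest genes. Members, lists and thresholds were chosen with earlier results of these data known. The scripts were tested on simulated data. Python 3.11.15, numpy 2.4.6 and pandas 2.3.3 were used. Alternatives were other floors, quantile normalization and other probe set rules.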

Additional observations from a re-analysis of the deposited data

How the results depend on the processing

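No paired analysis was possible because each group has 1 array, and no replicate could be left out. The counts at 1.5-fold (1 higher and 2 lower of 47, with 1.75% and 3.91% of all genes) became 3 and 4 of 54 with no floor (12.3% and 17.2% of all genes), 2 and 3 of 51 at a floor of the 25th percentile (7.16% and 12.0%), 0 and 0 of 37 at the 75th (0.575% and 1.01%), 4 and 0 of 45 with the mean over the probe sets of a gene (2.98% and 4.86%; Ctsh with Atp6v1b2, Atp6v1h and Ctsl, each but Ctsh with dim probe sets in the mean), and 1 and 1 of 47 after quantile normalization (2.74% and 2.61%). Probe sets that can match several transcripts were then left out, but only where the gene also had a probe set of the plain kind. The counts were then 2 and 3 of 47 (1.92% and 4.06%). The count at 2-fold higher (1) became 3 with no floor, 2 at the 25th percentile, and 0 at the 75th and with the mean over probe sets, and the count at 2-fold lower (0) became 1 with no floor. With genes of mean intensity of at least 500 only, a choice made after seeing the data, these counts were 0. The cathepsin median of 0.00 became 0.13 both at the 75th percentile and with no floor, where other genes enter or leave the list. The other 5 medians moved by less than the probe set SD over the square root of the gene number under every alternative run, although the pump and lipid medians, both near 0, changed sign under some (pump to 0.02 and lipid to -0.02 at the 75th percentile). Ctsh was 1.15 after quantile normalization, 0.73 with the mean over probe sets and 0.21 at the 75th percentile, and Sgsh was -0.69, -0.45 and 0. Of 359 values of single genes under an alternative, 336 stayed within the probe set SD and 23 moved by more. Many of the 336 could not move, so their share does not measure robustness. A lower floor leaves genes above the main floor unchanged, and the cut at a mean of 500 only leaves genes out. The probe set rules cannot change the genes with 1 probe set, 23 of the 54. No scaling moved the median of all genes by over 0.1. With no replicate arrays, a difference of the size of the probe set SD could not be told from technical spread.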
